A study of Mus musculus with 8 samples.

Results

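In the thyroid follicle, hormone is made on thyroglobulin, a large secreted protein whose tyrosines are iodinated with hydrogen peroxide as the oxidant. The peroxide comes from the dual oxidases DUOX1 and DUOX2, NADPH oxidases of the apical membrane that leave the endoplasmic reticulum only with their maturation factors DUOXA1 and DUOXA2. Iodotyrosine deiodinase then recovers iodide from the iodotyrosines released when thyroglobulin is digested, while NOX4 and the phagocyte oxidase CYBB are further NADPH oxidases of this family.

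The 8 genes described here are those of this machinery, Tg, Iyd, Duox1, Duoxa1, Duox2, Duoxa2, Nox4 and Cybb, out of 34797 gene names on a mouse expression array. They were taken by name: every spot that is no control spot and carries one of these names was used, which gave 14 probes on 23 spots, and all 8 genes were measured. The arrays carried total RNA from whole thyroids of female Balb/c mice 8 weeks old. The 4 exposed thyroids (S539, S588, S589 and S590) came from mice given 99mTcO4-, pertechnetate, which enters cells through the iodide transporter, so that the gland absorbed 30 Gy, and the RNA dates from 24 hours later. The 4 control thyroids (replicates 1 to 4) were described as untreated in one place of the study and as given saline in another. The 8 arrays share 1 slide and 1 scan. Exposed samples fill its leading positions and controls the others, so a position effect and a group effect cannot be told apart.

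Every value below is a log2 signal, the background-subtracted brightness of a spot after quantile normalization between arrays, and 1 unit is a doubling. Tg was among the brightest probes of every array, and 11 of 12 other genes typical of thyrocytes were well above background on all 8 arrays. Markers of adjoining tissues were measured too: 10 of 10 skeletal muscle genes and 7 of 8 parathyroid and C cell genes were well above background on every array. The summed level of thymocyte markers was 15.15 on control replicate 1 and 14.32 on control replicate 2, and lay between 11.65 and 12.37 on the other 6 arrays, so values without these 2 controls are given beside the calls and directions they change. Between 60.5% and 77.3% of spots were well above background on an array, and the small number of arrays limits the precision.

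The probes show which stretch of a transcript each value reads. Shown here are the Tg probe, which reads the scaffold protein's transcript, and probes that end at a stop codon, cross a splice junction or carry a feature on which a later comparison turns. They are written 5′ to 3′ on the transcript strand, with positions in mm9 as the array files give them. The Tg probe lies at chr15:66682078-66682137, the Duox2 probe at chr2:122106173-122106232 on the minus strand, and the Duoxa1 probe stretches over chr2:122131391-122132072 on the minus strand, 682 genomic bases for 60 bases of probe, so it crosses a splice junction. Capitals mark the TGA that closes an open reading frame at the end of the Duox2 probe and the polyadenylation hexamer AATAAA in the last 30 bases of the brighter Duoxa2 probe, which lie at chr2:122128298-122128327 on the plus strand.
Tg, A_52_P117408: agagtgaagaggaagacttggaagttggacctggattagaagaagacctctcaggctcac
Duox2, A_55_P1974760: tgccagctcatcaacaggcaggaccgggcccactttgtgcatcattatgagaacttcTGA
Duoxa1, A_66_P120494: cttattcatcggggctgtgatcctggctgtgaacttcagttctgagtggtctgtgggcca
Duoxa2, end of A_55_P2107374: ggagaactgtaAATAAActtttttgtttct

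The second Duoxa2 probe, A_55_P2006644, holds no such hexamer and begins 248 bases after the one shown, still on the plus strand and under the same RefSeq accession. It is 715 bases short of the nearest Duoxa1 RefSeq probe, which reads the opposite strand, so the tails of the 2 maturation factor genes face each other. Of the 14 probes, 13 were well above background on all 8 arrays. The exception was A_55_P2186499, which carries the name Duoxa1 through an Ensembl transcript only, and which lies 206 bases before the first Duoxa2 probe and was not well above background on any array.

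Of the 8 genes, Duoxa1 rose in exposed thyroids about 5-fold and Cybb fell. Duoxa2 was lower at both of its 2 probes and passed the test at 1 of them. Duox1 was higher on every exposed array but, like Tg, Iyd, Duox2 and Nox4, did not pass the test. Counting 1 probe for a gene, 1 gene was higher (Duoxa1) and 1 lower (Cybb) at limma's adjusted p under 0.05, where the whole array had 0.695% of genes higher and 0.207% lower. Counting probes, 2 were higher, both of Duoxa1, and 2 were lower, of Duoxa2 and Cybb, against 0.587% and 0.194% of all probes. The exposed arrays lay entirely above the controls for 2 genes (Duoxa1 and Duox1) and entirely below them for 2 (Duoxa2 and Cybb), where 5.25% and 4.74% of all genes did so. In RNA from a whole organ, fewer cells of a type and less RNA per cell cannot be told apart.

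**Figure D1:**
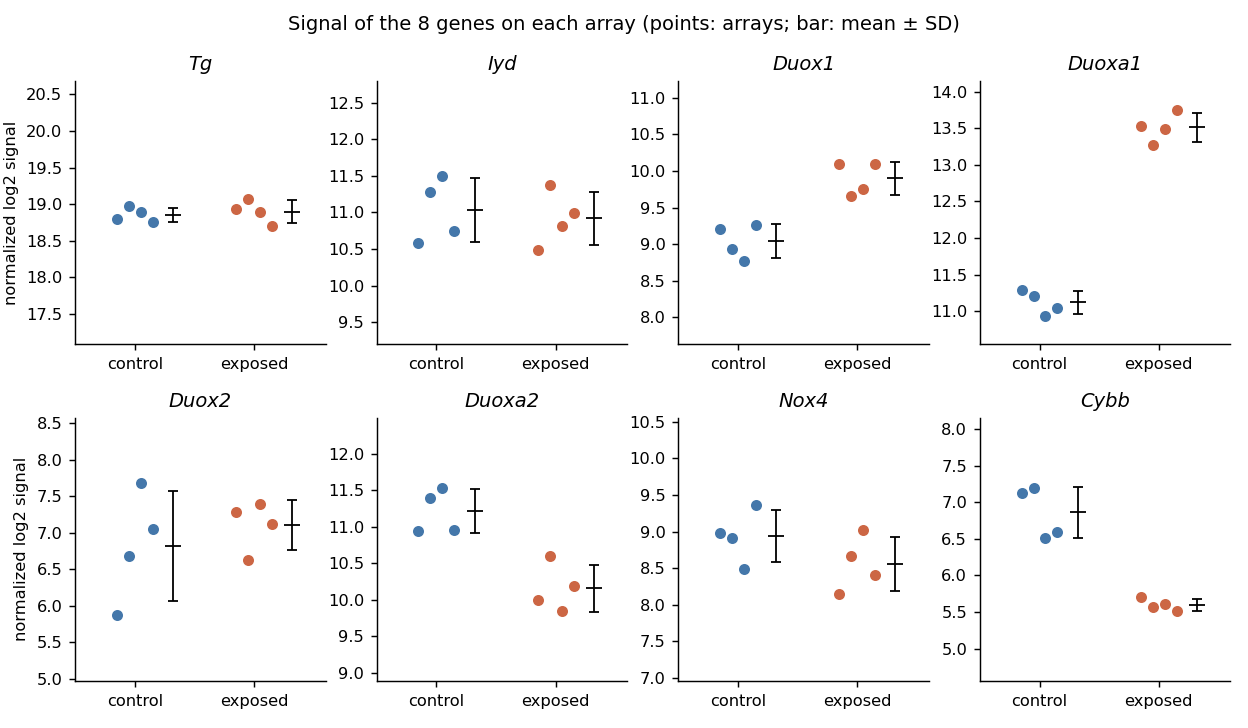
Normalized log2 signal of the 8 genes on each array, with control arrays in blue and exposed arrays in orange. Points are single arrays, the bar beside them is the mean ± SD (n = 4), and every panel spans the same number of log2 units around its own centre. The groups are apart for Duox1, Duoxa1, Duoxa2 and Cybb and overlap for Tg, Iyd, Duox2 and Nox4.

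Thyroglobulin itself, the protein scaffold of the hormone, showed no difference that passed the test. Its log2 signal was 18.80, 18.97, 18.88 and 18.75 on control replicates 1 to 4 and 18.93, 19.07, 18.88 and 18.70 on S539, S588, S589 and S590. The groups overlapped throughout, and the lowest value of all was an exposed one. The difference of exposed minus control was 0.04 (limma SE 0.13, 95% interval from -0.27 to 0.35, adjusted p = 0.922). Tg sat within 0.37 of the top of every array, with at most 6 probes brighter, and no spot was saturated. Quantile normalization gives all arrays the same highest values. With scaling by each array's 75th percentile instead, which sets the median of all probes at 0.16, the difference for Tg was 0.53 (adjusted p = 0.381). That was 0.37 above the median, a value without a test.

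Iyd, the deiodinase that salvages iodide, also overlapped. It read 10.58, 11.29, 11.51 and 10.75 on the controls and 10.49, 11.37, 10.82 and 10.996 on the exposed arrays. The 4 controls alone covered nearly the full range. The difference was -0.11 (SE 0.27, interval from -0.74 to 0.52, adjusted p = 0.891). It turned to 0.046 without control replicate 3 and to 0.031 without S539.

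The dual oxidases and their maturation factors lie side by side on chromosome 2 in the order Duox2, Duoxa2, Duoxa1, Duox1. Each oxidase starts next to its own factor and is read in the other direction. In the RefSeq table for GRCm38.p6 the starts of Duox1 and Duoxa1 are 1942 bases apart, and those of Duox2 and Duoxa2 are 673 bases apart. Among the 4 neighbours the 2 factors differed in direction, so both upstream stretches are printed after the results.

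Duoxa1, the factor that carries DUOX1 to the membrane, showed the clearest change of the 8 genes. Its brightest probe, A_55_P2046443, read 11.28, 11.21, 10.94 and 11.05 on the controls and 13.52, 13.27, 13.49 and 13.75 on the exposed arrays. All 4 exposed thyroids stood about 2 units above all 4 controls, and the spread within either group was small. The difference was 2.39 (SE 0.15, interval from 2.04 to 2.75), a 5.25-fold rise with an adjusted p = 0.0017. The splice junction probe printed above read 7.77, 8.22, 8.10 and 8.24 on the controls and 10.57, 10.09, 10.48 and 10.78 on the exposed arrays. That probe gave nearly the same difference, 2.40 (SE 0.19, adjusted p = 0.0032), from another stretch of the transcript. Duoxa1 passed the threshold in all 18 alternatives in which it was refitted, with differences from 2.29 to 2.52. DUOX1 and DUOXA1 are also made by airway epithelium, and the trachea adjoins the gland. Of 16 airway markers 12 had a fold change below 0, against 49% of all genes, with a median of -0.44. Of the 16, 1, Foxj1, passed the test at 2.49, where 0.695% of all genes were called higher. Tekt1 went the other way, lower on every exposed array by -1.83 (adjusted p = 0.0899), and was the 1 airway marker with groups apart and lower, where 4.74% of all genes were. Tppp3, Dnahc5 and Ccdc153 were also below 0, at -0.62, -0.67 and -0.22, with overlap. The summed level of the airway markers was 15.71 to 17.27 on the controls and 15.42 to 16.56 on the exposed arrays, and its part in the value for Duoxa1 was not tested.

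Duox1, one of the 2 peroxide-forming oxidases, was also higher on every exposed array, by less. Its probe, printed on 10 spots of each array, read 9.21, 8.93, 8.76 and 9.26 on the controls and 10.10, 9.66, 9.75 and 10.09 on the exposed arrays. The lowest exposed value was 9.66 and the highest control value 9.26, so the groups did not overlap. The difference was 0.86 (SE 0.18, interval from 0.44 to 1.27), or 1.81-fold, with an adjusted p = 0.0996 that missed the threshold. It passed in 5 of 18 alternatives, among them the deposited values (0.78, adjusted p = 0.0402), and the adjusted p ran from 0.0326 to 0.266 over all of them.

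Duoxa2, the factor that carries DUOX2, went the other way. The brighter probe, which ends just past the hexamer AATAAA, read 10.95, 11.40, 11.53 and 10.96 on the controls and 9.999, 10.60, 9.85 and 10.19 on the exposed arrays. Every exposed array lay below every control, with S588 the nearest at 10.60. The difference was -1.05 (SE 0.22, interval from -1.56 to -0.54), and its adjusted p = 0.1003 missed the threshold. It passed in 4 of 18 alternatives, among them the deposited values (-0.95, adjusted p = 0.0467). The probe beyond the hexamer read 9.63, 10.50, 10.38 and 10.12 on the controls and 7.81, 7.61, 8.41 and 8.56 on the exposed arrays. Here S588 was the lowest array, and the gap between the groups was over 1 unit. This probe fell by 2.06 (SE 0.28, interval from -2.71 to -1.40), a 4.16-fold decrease with an adjusted p = 0.0245. Without control replicates 1 and 2 it was -2.15 (adjusted p = 0.110). Of the 8 fits that left out 1 array, it passed only in the one without control replicate 1 (adjusted p = 0.0269). It stayed lower in all 18 alternatives, from -2.23 to -1.76.

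The 2 Duoxa2 probes did not change by the same amount. The signal of the probe past the hexamer minus that of the other was -1.32, -0.90, -1.16 and -0.84 on the controls and -2.19, -2.98, -1.44 and -1.64 on the exposed arrays. The exposed arrays were all lower, with S588 lowest and S589 and S590 close to control replicate 1. The difference between probes shifted by -1.004 (control mean -1.06 ± 0.22 SD, exposed mean -2.06 ± 0.69 SD, n = 4 each, p = 0.0286 in a two-sided exact permutation test). No smaller p is possible with 4 against 4 arrays. This comparison was chosen after the values had been seen. Whether the probes read different transcript ends was not tested.

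Duox2, the other peroxide-forming oxidase, did not pass the test. The probe ending at its stop codon read 5.87, 6.68, 7.68 and 7.05 on the controls and 7.28, 6.62, 7.40 and 7.12 on the exposed arrays. Control replicate 1 was lowest and replicate 3 highest of all 8, and the exposed arrays fell within that range. The difference was 0.29 (SE 0.38, interval from -0.59 to 1.16, adjusted p = 0.781). The second probe, A_55_P2100505, ranged from 5.74 to 6.87 on the controls and from 6.61 to 7.36 on the exposed arrays, with a difference of 0.41 (adjusted p = 0.588). The sign rested on control replicate 1: without it the difference at the first probe was -0.031, and without control replicates 1 and 2 it was -0.26.

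**Figure D2:**
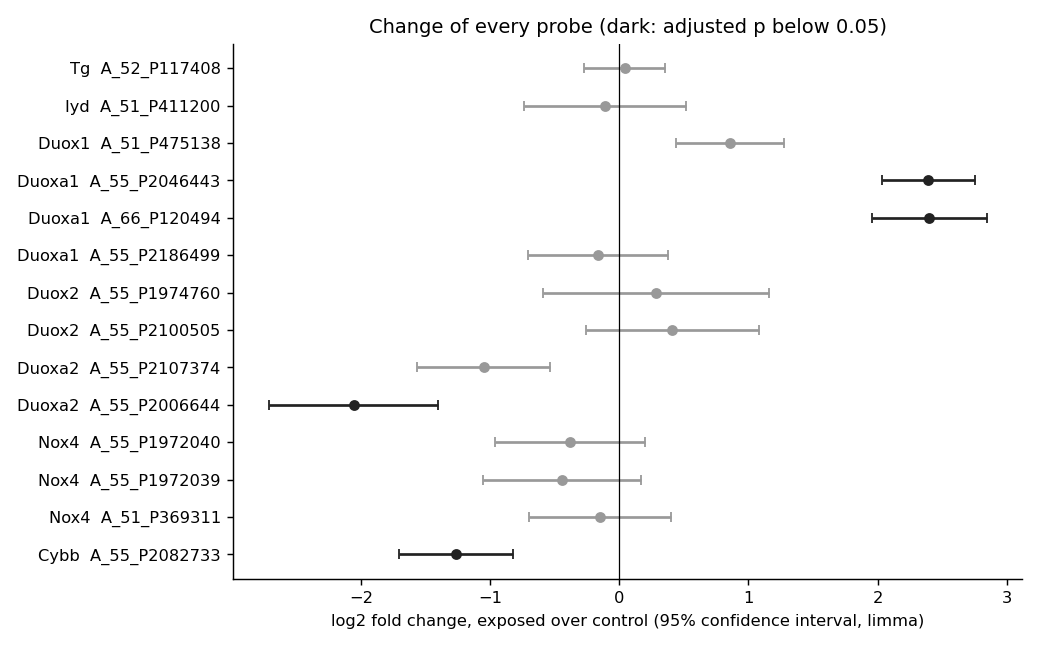
Log2 fold change of exposed over control for all 14 probes, grouped by gene, with 95% confidence intervals from limma. Dark points passed an adjusted p of 0.05. The 2 RefSeq probes of Duoxa1 stand at 2.39 and 2.40, the Duoxa2 probe past the hexamer at -2.06 and Cybb at -1.27, and the lowermost of the Duoxa1 probes, near -0.17, is the one never well above background.

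How neighbouring or related genes differed in change was tested on the difference of their log2 signals within each array, in 4 pairs. The gap between Duoxa1 and Duoxa2 widened by 3.44 and that between Duoxa1 and Duox1 by 1.54, and in both pairs the groups of arrays were apart. Each had a two-sided exact permutation p = 0.0286, the smallest possible here, and 0.0571 after Benjamini-Hochberg adjustment over the 4 pairs. Duoxa2 against Duox2 shifted by -1.34 (p = 0.0857, adjusted 0.114, exact permutation test) and Duox1 against Duox2 by 0.57 (p = 0.314, exact permutation test), with overlapping groups. Without S588 the first 2 shifts were 3.67 and 1.54 and that of Duoxa2 against Duox2 was -1.64. Each then had an adjusted p = 0.0381 by the exact permutation test. Of the 8 fits that left out 1 array, this was the only one past the threshold for these pairs. Over the 8 fits the adjusted p of this test ran from 0.0381 to 0.0571 for the first 2 pairs. For Duoxa2 against Duox2 it ran from 0.0381 to 0.1905. Benjamini-Hochberg adjustment makes each value depend on the p of the other pairs.

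**Figure D3:**
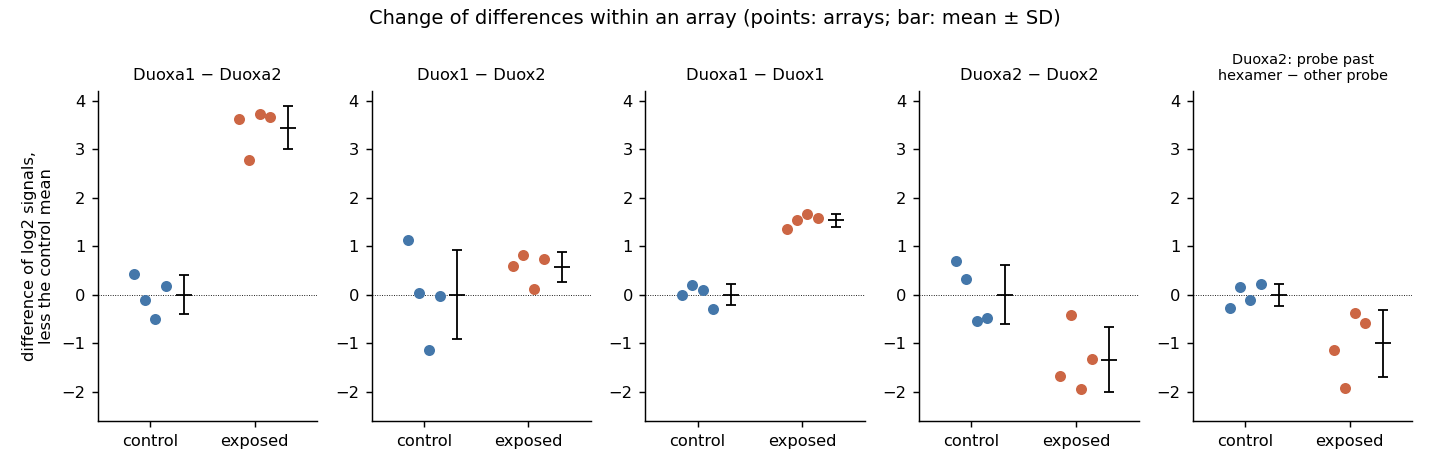
Difference of log2 signals within each array for the 4 pairs of genes and for the 2 Duoxa2 probes, with the control mean set to 0 in each panel, so only changes are compared. Points are arrays, bars are mean ± SD (n = 4). The groups are apart for Duoxa1 against Duoxa2, for Duoxa1 against Duox1 and for the Duoxa2 probes, where the exposed means lie at 3.44, 1.54 and -1.004.

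The genes on either side of this cluster did not pass the test. Sord, which lies beyond Duox2 and encodes sorbitol dehydrogenase, differed by 0.30 (adjusted p = 0.454). Shf and Slc28a2, beyond Duox1, differed by 0.22 (adjusted p = 0.609) and 0.34 (adjusted p = 0.607). All 3 overlapped between the groups, so Duoxa1, Duox1 and Duoxa2 were the genes of this stretch with groups apart. Around Tg on chromosome 15, Phf20l1 differed by 0.24 (adjusted p = 0.670) and Tmem71 was not well above background on any array, and Sla and Ccn4 lay lower on every exposed array, by -1.51 (adjusted p = 0.328) and -2.20 (adjusted p = 0.0512).

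The stretches upstream of the 2 factor genes that moved in opposite directions are shown for their sequence features. Both are cut to bases outside the RefSeq gene records, run 5′ to 3′ towards the gene, and come from RefSeq on GRCm38.p6. The Duoxa2 stretch is chr2:122298741-122298899 on the plus strand, ending at the base before the transcript start. The Duoxa1 stretch is chr2:122313764-122313980 on the minus strand and ends short of the start used for the distances, at the edge of the Duoxa1 gene record. Capitals mark the TATA box TATAAA and the GC box GGGCGG on either strand.
Duoxa2, upstream: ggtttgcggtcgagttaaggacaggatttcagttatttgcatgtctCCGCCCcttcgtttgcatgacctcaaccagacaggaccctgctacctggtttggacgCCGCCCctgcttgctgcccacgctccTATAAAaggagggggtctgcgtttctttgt
Duoxa1, upstream: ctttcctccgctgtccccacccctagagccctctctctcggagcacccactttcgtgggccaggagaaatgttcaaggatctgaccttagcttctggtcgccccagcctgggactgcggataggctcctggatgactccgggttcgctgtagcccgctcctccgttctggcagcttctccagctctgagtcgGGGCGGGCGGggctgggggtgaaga

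Motifs were counted on both strands in the 250 bases before the start of 7 of the 8 genes, those with an entry in the table. TATAAA occurred before Duoxa2 and Iyd and in 12.4% of all 32851 windows. The GC box occurred 3 times before Duoxa1, the copies in capitals overlapping, 2 times before Duoxa2 and 1 time before Nox4, and in 32.7% of windows. CCAAT occurred before Duox2, Iyd and Cybb (33.8% of windows), and the AP-1 site TGANTCA before Duoxa2 and Cybb (6.7%). The E-box CACGTG (6.0%) matched in none of the 7 windows, and the p53 half-site (7.1%) matched before Nox4 only. A match is a string of letters and says nothing of binding.

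Nox4, an oxidase that forms hydrogen peroxide inside the cell, was measured by 3 probes and none passed the test. The brightest, A_55_P1972040, read 8.98, 8.91, 8.49 and 9.37 on the controls and 8.14, 8.67, 9.02 and 8.41 on the exposed arrays. S589 lay above 3 of the 4 controls, so the groups overlapped. Its difference was -0.38 (SE 0.25, interval from -0.96 to 0.20, adjusted p = 0.567), and the other 2 probes gave -0.44 and -0.15.

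Cybb, the catalytic subunit of the oxidase of phagocytes, was dim and fell. It read 7.13, 7.20, 6.52 and 6.60 on the controls and 5.70, 5.56, 5.61 and 5.52 on the exposed arrays. The exposed values were close together and below every control, and control replicates 1 and 2, the arrays with high thymocyte markers, were the highest. The difference was -1.27 (SE 0.19, interval from -1.71 to -0.82), a 2.40-fold decrease with an adjusted p = 0.0337. Without control replicates 1 and 2 it was -0.96 (adjusted p = 0.113), and with 75th percentile scaling -0.93 (adjusted p = 0.226), or -1.10 relative to the median of all probes, a value without a test. The change was smallest with normexp background correction, -0.60 (adjusted p = 0.0539), and was -0.65 both without background correction and in the deposited values. Cybb remained lower in all 18 alternatives and past the threshold in 4, and of the fits without 1 array only the one without control replicate 3 kept it there (adjusted p = 0.0474).

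Markers of the leukocytes that carry this oxidase moved with it in part. Of 16 macrophage and monocyte markers measured, 15 stood well above background throughout. Of the 16, 13 had a fold change below 0, with a median of -0.44, 5 had groups apart and lower, and 1, Cx3cr1, passed the test at -2.43. Over all genes 49% lay below 0, 4.74% had groups apart and lower, and 0.207% were called lower. The summed level of the 16 ran from 15.60 to 16.29 on the controls and from 15.70 to 16.77 on the exposed arrays, which overlap. Sums add unlogged signals, so the brightest gene weighs most. Here that was Itgam, which went against most of the list with a difference of 0.79 (adjusted p = 0.474). It read 14.15 to 15.36 on the controls and 14.74 to 16.435 on the exposed arrays, highest on S588. All 8 dendritic cell markers, 6 of them well above background throughout, had a fold change below 0, with a median of -0.89, and 1, Clec9a, passed (adjusted p = 0.0075). Clec9a was not well above background on any exposed array, so it was at least 5.61-fold lower, taking the lowest signal well above background on each array as its bound. Their summed level was 11.004 to 11.72 on the controls and 10.14 to 10.80 on the exposed arrays, so these groups were apart. Control replicates 1 and 2, with high thymocyte markers, were again the highest, at 11.57 and 11.72. Control replicates 3 and 4, at 11.004 and 11.14, still lay above every exposed array. Of 12 neutrophil markers, 7 of them well above background throughout, 11 had a fold change above 0, against 51% of all genes, and none passed. S588 was the highest of the 8 arrays for 10 of them, and without it 7 had a fold change above 0. Across all arrays the summed level of the neutrophil markers was 16.61 to 16.97 on the controls and 16.83 to 17.63 on the exposed arrays. Most of this sum was 1 gene, Csf3r, at 16.57 to 16.93 on the controls and 16.79 to 17.18 on the exposed arrays. The part of these cells in the value for Cybb was not tested.

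**Figure D4:**
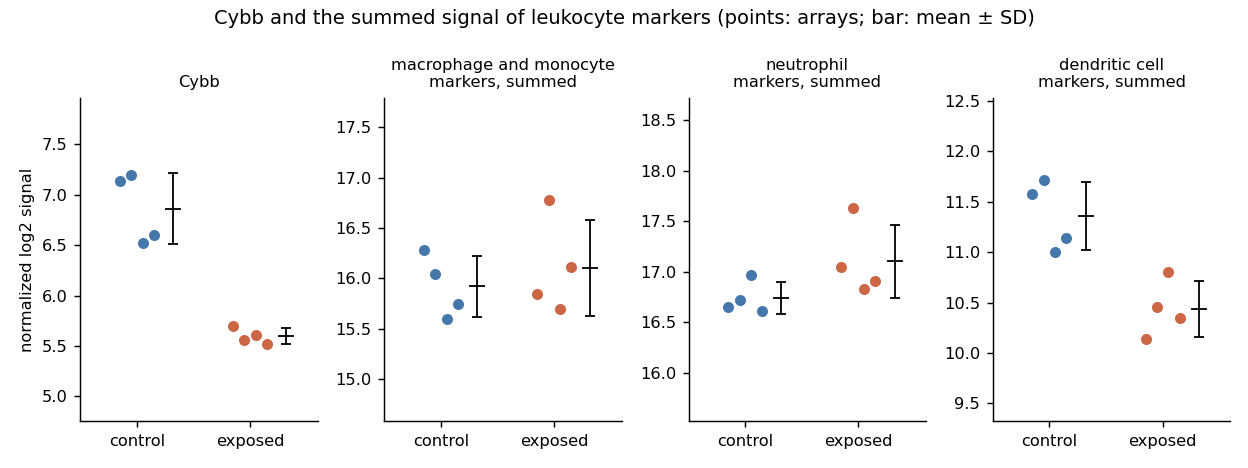
Log2 signal of Cybb and log2 of the summed signal of macrophage, neutrophil and dendritic cell markers on each array, with control arrays in blue and exposed arrays in orange, mean ± SD at the side (n = 4). Every panel spans the same number of log2 units. Cybb and the dendritic cell sum are lower on all 4 exposed arrays, and the other sums overlap, with S588 highest. The brightest genes, Itgam for macrophages and Csf3r for neutrophils, weigh most in those sums.

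Of the other genes around peroxide, 10 further NADPH oxidase genes and subunits were measured and none passed the test (median -0.14, against 0.01 for all genes). Rac2, a small GTPase of the leukocyte oxidase, differed by -1.73 (adjusted p = 0.421), with 12.02 and 11.16 on control replicates 1 and 2 and 8.14 to 8.87 on the other arrays. Ncf4, a cytosolic subunit of the phagocyte oxidase, was lower on every exposed array by -0.57 (adjusted p = 0.281). Noxo1, which organizes NOX1, was higher on each by 0.40 (adjusted p = 0.386), and its partner Noxa1 differed by 0.50 (adjusted p = 0.473) with overlap. Nox3 was not well above background on any array.

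None of the 22 genes that remove hydrogen peroxide passed the test either, and their median was -0.06. Prdx6, a peroxiredoxin, came nearest, with 15.82, 15.98, 16.41 and 15.91 on the controls and 17.49, 16.84, 17.33 and 17.00 on the exposed arrays. The groups did not overlap, and their means differed by 1.14 (SE 0.20, adjusted p = 0.0616), and it passed in 7 of the 9 alternatives that kept all arrays. Catalase (Cat) differed by 0.65 (adjusted p = 0.527), mostly through S588 at 13.36. Srxn1, which repairs oxidized peroxiredoxins, differed by 0.51 (adjusted p = 0.361) and the glutathione peroxidase Gpx2 by -0.71 (adjusted p = 0.414). The 11 genes that supply NADPH, the fuel of the oxidases, had a median of -0.03 and none passed. Pgls and H6pd of the pentose phosphate route were higher on every exposed array by 0.52 and 0.51, and Me1 and Nnt lower by -0.60 and -0.64, with adjusted p between 0.244 and 0.307.

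The genes that handle thyroglobulin before and after iodination did not pass the test. The 14 folding and export genes stayed within -0.27 and 0.22, and those of largest change were Pdia6 (-0.27), Calr (-0.23), P4hb (-0.22) and Canx (0.22), chaperones and oxidoreductases of the endoplasmic reticulum. Of 12 genes of uptake and proteolysis, 10 had a fold change below 0, against 49% of all genes, and 4 had groups apart and lower, against 4.74%. Asgr1, a subunit of the asialoglycoprotein receptor, differed by -1.48 (SE 0.31, adjusted p = 0.09998, past the threshold in 4 of 9 alternatives) and Asgr2, its other subunit, by -0.79 (adjusted p = 0.336). The cathepsins Ctss and Ctsl, lysosomal proteases, differed by -0.87 (adjusted p = 0.156) and -0.67 (adjusted p = 0.240). Another cathepsin, Ctsd, went the other way and was higher on every exposed array by 0.55 (adjusted p = 0.209). Ctsb, Ctsh and Ctsk differed by 0.04, -0.02 and -0.17, with overlap.

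Of 12 other thyrocyte genes all had a fold change below 0, against 49% of all genes, with a median of -0.52. Of the 12, 2 passed, where 0.207% of all genes were called lower. They were Slc5a5, the sodium iodide symporter, at -3.53 (adjusted p = 0.0137), and Dio1, the deiodinase that activates thyroxine, at -2.46 (adjusted p = 0.0153). Without control replicates 1 and 2 they were -3.67 (adjusted p = 0.0860) and -2.47 (adjusted p = 0.110). Both also lost the call without control replicate 2 (adjusted p = 0.0551 and 0.0610), without S589 (0.0521 and 0.0618) and without S590 (0.0577 and 0.0575), and Dio1 lost it without S539 (0.0613). Cdh16, a cadherin, and Ano1, a chloride channel, were lower on every exposed array by -1.27 (adjusted p = 0.0931) and -1.09 (adjusted p = 0.104), and each passed in 5 of the 9 alternatives that kept all arrays. The summed level of these genes was 16.31 to 17.25 on the controls and 15.66 to 15.86 on the exposed arrays. Among other tissues, the sum of 10 fibroblast and endothelium markers was 17.11 to 17.55 on the controls and 16.74 to 17.09 on the exposed arrays. Dcn, the brightest of them, weighs most in this sum, with means of 16.63 on the controls and 16.02 on the exposed arrays. The median of the 10 genes was -0.24, with 6 below 0. The 4 above 0 were the endothelial genes Pecam1, Cdh5, Vwf and Tie1, at 0.08 to 0.14. Skeletal muscle markers had a median of -1.01, with 9 of 10 below 0, against 49% of all genes. Parathyroid and C cell markers had one of 0.36, with 7 of 8 above 0, against 51% of all genes. None of the genes of these tissues passed the test. The part of these tissues in the values for the 8 genes was not tested. Beside the lower values of the 12 thyrocyte genes, Duoxa1 was higher, Duoxa2 lower, and Tg and Iyd overlapped.

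**Figure D5:**
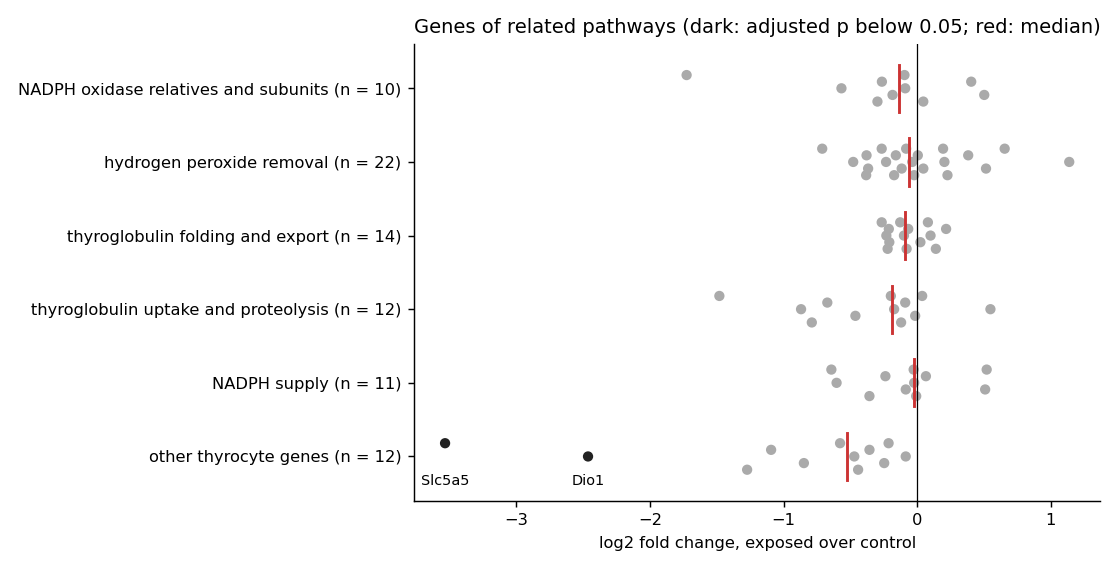
Log2 fold change of exposed over control for the genes of 6 related lists, 1 point for a gene, with the median of each list as a red line and dark points for an adjusted p under 0.05. Slc5a5 (-3.53) and Dio1 (-2.46) are the genes past the threshold, and the median of the thyrocyte list (-0.52) is the lowest.

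Genes with the most similar profiles were found over the 8 arrays by the root mean square difference of log2 signals, each centred on its own mean, among the 13411 RefSeq genes that averaged 7 or more over all arrays. For Duoxa1 they were Ddit4 (0.15), Mgmt (0.17) and Per2 (0.23), whose own changes were 2.34, 2.35 and 2.23. For Duox1 they were Coq10b, Tmem43 and 1500010J02Rik, at 0.13 to 0.16. Near Duoxa2 were Inpp5j (0.13) and Matn4 (0.17), and near Cybb were Irf8 (0.14), Plxdc1 (0.17) and Mpeg1 (0.19). For the genes with overlapping groups the nearest were Fbxl6, Rnf216 and Ciapin1 for Tg, Fgl1, F3 and Stt3a for Iyd, Ppp1r10, Bbs2 and Amigo2 for Duox2, and St6galnac6, Gypc and 4632428N05Rik for Nox4. These distances describe 8 arrays in 2 groups and carry no test.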

How the data were processed

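Labelled cRNA from 8 thyroids was hybridized by the authors to one-colour mouse arrays, scanned and read with Agilent Feature Extraction 10.7.3.1. The deposited scanner files hold intensity values per spot, with background already subtracted in the processed signal used here. The deposited value table holds log2 signals that the authors normalized with limma, and it was used as an alternative.

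Control spots were left out, signals were taken to log2, quantile-normalized and averaged over the spots of a probe (59305 spots, 55681 probes). Exposed and control arrays were compared with limma 3.58.1 in R 4.3.3 (lmFit, eBayes) and Benjamini-Hochberg adjustment over all probes at 0.05, which called 327 probes higher and 108 lower. A gene stood for its brightest probe with a RefSeq NM accession, or its brightest probe without one. Differences within an array were tested over all 70 assignments of 4 and 4 arrays in Python 3.11.15. The labels number the samples and the methods state biological replicates. The code was tested on simulated data.

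The 8 genes and all lists were chosen with earlier results of these data known. Named were all probes of the 8 genes, up to 4 genes of largest change in each pathway list, called genes, 3 nearest profiles and up to 2 neighbours on each side, except those of Iyd, Nox4 and Cybb and 1 further gene beside Duox2, which did not pass the test. Some genes that this rule names are not reported here. Marker genes, and outside this rule Ctsd, Ctsb, Ctsh and Ctsk, were named after their values were seen. Positions are mm9 for probes and GRCm38.p6 for upstream stretches.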

Additional observations from a re-analysis of the deposited data

Results flagged for a closer look

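The Duoxa1 probe known only from an Ensembl transcript, A_55_P2186499, read 3.488 on S539, against 2.893 to 2.939 on the other 3 exposed arrays. It was marked because this array stood far from the rest of its group, and none of these values was well above background. Of 28 groups of 4 arrays compared, 1 was marked, where chance gives about 1.4.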

How the results depend on the processing

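Duoxa1 and its splice junction probe passed the threshold under every alternative refitted, and no alternative turned the direction of Duox1, Duoxa2, Cybb, Nox4 or any of the 4 pairs. With 75th percentile scaling 1 probe and 0 genes of the 8 were lower, 1 pathway gene was higher, Cybb was -0.93, and the pair shifts were 3.46, 1.51 and -1.56 with an adjusted p = 0.0381 (exact permutation test). With normexp 1 probe and 0 genes were lower, 2 genes higher, the pathway lists held 1 gene higher and 5 lower, Duox1 was 0.77 and Cybb -0.60. Without background correction and in the deposited values 2 genes were higher, the lists held 1 higher and 5 lower, Duox1 was 0.77 and 0.78, Duoxa2 -0.95 in both and Cybb -0.65 in both, so that Duoxa2 in place of Cybb was the gene past the threshold among the lower ones. A filter on dim probes gave 1 pathway gene higher. The methods' t-test left 0 probes and 0 genes lower, with Cybb at -1.27 and the Duoxa2 probe past the hexamer at -2.06 no longer past the threshold. With a variance trend 2 genes were higher, 1 pathway gene was higher and 4 were lower, Duox1 was 0.86 and Duoxa2 -1.05, both past the threshold, and Cybb at -1.27 was not. With array weights 2 genes were higher and 2 lower, the lists held 1 higher and 5 lower, Duox1 was 0.96, Duoxa2 -1.24, and Tg turned to -0.037. With limits on fold and signal 0 genes were lower, and the median over both Duoxa2 probes was -1.55. Without control replicates 1 and 2, chosen after seeing the data, 0 probes, 0 genes and 0 pathway genes were lower, Duox2 turned to -0.26, Cybb was -0.96 and the Duoxa2 probe past the hexamer -2.15, neither past the threshold. Leaving out 1 array at a time, the lower calls ran from 0 to 1 probes, 0 to 1 genes and 0 to 2 pathway genes. Cybb ran from -1.38 to -1.15 and the Duoxa2 probe past the hexamer from -2.23 to -1.89, each past the threshold in 1 of 8 fits. Tg ran from -0.017 to 0.11, Duox2 from -0.031 to 0.57 and Iyd from -0.26 to 0.046, and the pair shifts from 3.28 to 3.67, 1.44 to 1.602 and -1.64 to -1.11. The causes were not tested. No paired analysis was possible because the labels of the 2 groups share no replicate numbers.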
